A study of Mus musculus with 6 samples.

Results

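Nucleic acid sensors and adaptors are the proteins with which a cell recognises double-stranded RNA and misplaced DNA. The 10 genes described here are Tlr3, Rigi, Ifih1, Dhx58, Mavs, Cgas, Sting1, Eif2ak2, Adar and Zbp1, and they were chosen by gene symbol. All 10 had a row among the 17110 genes of the authors' deposited table, and all 10 gene identifiers are also in the deposited count table. The study profiled polyadenylated RNA of mouse embryonic stem cells of the line called TG2A in the labels. Every cell carried a fluorescent reporter under MERVL, an endogenous retrovirus switched on in the two-cell embryo and in rare embryonic stem cells in culture. Cells were grown in serum with leukemia inhibitory factor and sorted by flow cytometry into reporter-positive (MERVL::DsRed2+) and reporter-negative (MERVL::DsRed2-) cells, with 3 samples in each of the 2 groups, collected on different dates. Both groups share the line, the reporter genotype and the medium, so 1 line stands for the state.

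The single comparison in the design asks how the sorted groups differ. It is known here from the authors' deposited DESeq2 table, which gives 1 mean count, 1 fold change and 1 standard error per gene over all libraries. The table names neither the groups nor the numerator, so the sign of each fold change is given as deposited. "Positive" below means higher in the group the table used as numerator, and "negative" means lower in it. Values per sample are not analysed here, because the names of the 6 count columns match no sample label. Overlap between the groups and the depth of each library are therefore unknown, and the error of each value is the authors' standard error, written after ± throughout. In bulk RNA, fewer cells with a transcript and less transcript per cell cannot be told apart.

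Double-stranded RNA in the cytoplasm is bound by the RIG-I-like receptors, RIG-I (Rigi), MDA5 (Ifih1) and LGP2 (Dhx58), of which RIG-I and MDA5 signal through MAVS on mitochondria. Cytoplasmic DNA is bound by cGAS, whose cyclic dinucleotide product activates STING on the endoplasmic reticulum, and both routes lead to type I interferon. TLR3 reads double-stranded RNA in endosomes, PKR (Eif2ak2) stops translation on binding it, ZBP1 binds left-handed nucleic acid and can trigger cell death, and ADAR edits adenosines in double-stranded RNA so that self RNA is less readily sensed. Endogenous retroviruses are a known source of such RNA, and embryonic stem cells are known for a weak interferon response.

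Several of these genes are themselves induced by interferon through the interferon-stimulated response element, so promoter sequence is shown around this element where a member has it, and further upstream for the called members with a RefSeq entry. RefSeq promoters of build GRCm38.p6, covering 250 bases before to 50 after a transcript start, were found for 7 of the 10 genes. Dhx58 and Zbp1 had no entry. No window was taken for Sting1, so whether it has an entry is not known here. The core of the element, 2 copies of GAAA with any 2 bases between them (TTTC copies on the other strand), was present in 3.44% of all 32851 promoters of the table. It was present in the promoters of Rigi, Ifih1 and Eif2ak2, in each case just after the transcript start. The windows below have the element in capitals. They are on the minus strand, at chr4:40239804-40239833 for Rigi, chr2:62646206-62646235 for Ifih1 and chr17:78882535-78882564 for Eif2ak2.
Rigi: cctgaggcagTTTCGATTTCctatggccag
Ifih1: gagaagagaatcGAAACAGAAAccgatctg
Eif2ak2: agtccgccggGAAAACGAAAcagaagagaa

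The first base of the element lay at position 3 of the transcript for Rigi, 33 for Ifih1 and 19 for Eif2ak2. These 3 genes carried the same core and had unlike fold changes, given below. No match to it was found in the windows of Tlr3, Mavs, Cgas or the 3 starts listed for Adar, which says only that these letters are not there. The gamma-activated site core TTCNNNGAA, present in 8.30% of promoters, was found at position -178 from the start of Eif2ak2 and at base 23 after the third Adar start. Neither match overlapped another motif searched.

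The 250 bases before the start are shown for Ifih1 and Tlr3, negative genes by the test below, and for Mavs, the positive one. Capitals mark the GC box GGGCGG, or CCGCCC on the other strand, which 35.7% of promoters hold. The regions are chr2:62646256-62646505 (minus strand), chr8:45410381-45410630 (minus strand) and chr2:131233813-131234062 (plus strand).
Ifih1: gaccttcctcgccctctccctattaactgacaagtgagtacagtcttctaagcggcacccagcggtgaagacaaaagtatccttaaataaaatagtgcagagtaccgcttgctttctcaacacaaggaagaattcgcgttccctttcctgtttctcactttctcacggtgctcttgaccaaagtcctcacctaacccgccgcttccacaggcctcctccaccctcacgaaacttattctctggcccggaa
Tlr3: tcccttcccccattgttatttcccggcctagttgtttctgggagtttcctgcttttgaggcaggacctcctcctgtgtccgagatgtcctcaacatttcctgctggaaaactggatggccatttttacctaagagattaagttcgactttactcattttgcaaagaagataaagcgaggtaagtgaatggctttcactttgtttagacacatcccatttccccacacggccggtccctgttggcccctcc
Mavs: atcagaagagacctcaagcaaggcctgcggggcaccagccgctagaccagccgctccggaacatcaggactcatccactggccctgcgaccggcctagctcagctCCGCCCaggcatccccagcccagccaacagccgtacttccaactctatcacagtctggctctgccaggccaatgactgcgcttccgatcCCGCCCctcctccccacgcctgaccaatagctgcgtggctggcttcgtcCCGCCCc

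Mavs had 3 GC boxes before its start, at positions -145, -56 and -7, and Ifih1 and Tlr3 had 0 there. Over the full 300 bases, G and C made up 64.0% of the Mavs window, 51.0% of that of Tlr3 and 49.0% of that of Ifih1, against a median of 52.7% over all promoters. The CpG count was 19 for Mavs, 14 for Ifih1 and 10 for Tlr3, and the median promoter had 7.

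Of the 10 genes, 3 were negative and 1 was positive by the adjusted p-value of the authors' deposited table, taken under 0.05, and 6 were not past it. Across all genes of the authors' deposited table, 15.9% were called negative, 14.6% positive and 30.5% in either direction. The share called among the 10 was thus 40.0%, near that background. The median log2 fold change of the 10 was 0.08, against 0.0097 for the whole authors' deposited table. At the authors' own limit, an absolute log2 fold change over 0.5 beside the adjusted p-value, the 3 negative genes remained. The background at that limit was 12.1% negative and 21.5% in either direction.

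The 3 negative calls were all among the scarcer transcripts. The 4 abundant genes, with mean normalized counts between 709 and 2367 in the authors' deposited table, had log2 fold changes between 0.06 and 0.44. The 6 scarce genes, with mean counts between 10.1 and 54.6, spread from -7.78 to 0.84 in the authors' deposited table. The division at a mean count of 100 was made after the values were seen, and the difference between abundant and scarce genes was not tested. In the whole authors' deposited table, 13.4% of genes with a mean count under 100 were called negative, against 17.2% at 100 or more. Without a fold limit, negative calls were thus not more frequent among scarce genes in general. At the authors' own fold limit, which the 3 negative genes passed, the order was the reverse. Every call under a mean count of 100 passed that limit, so 13.4% of those genes stayed negative. Over all genes, 12.1% were negative at that limit.

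**Figure D1:**
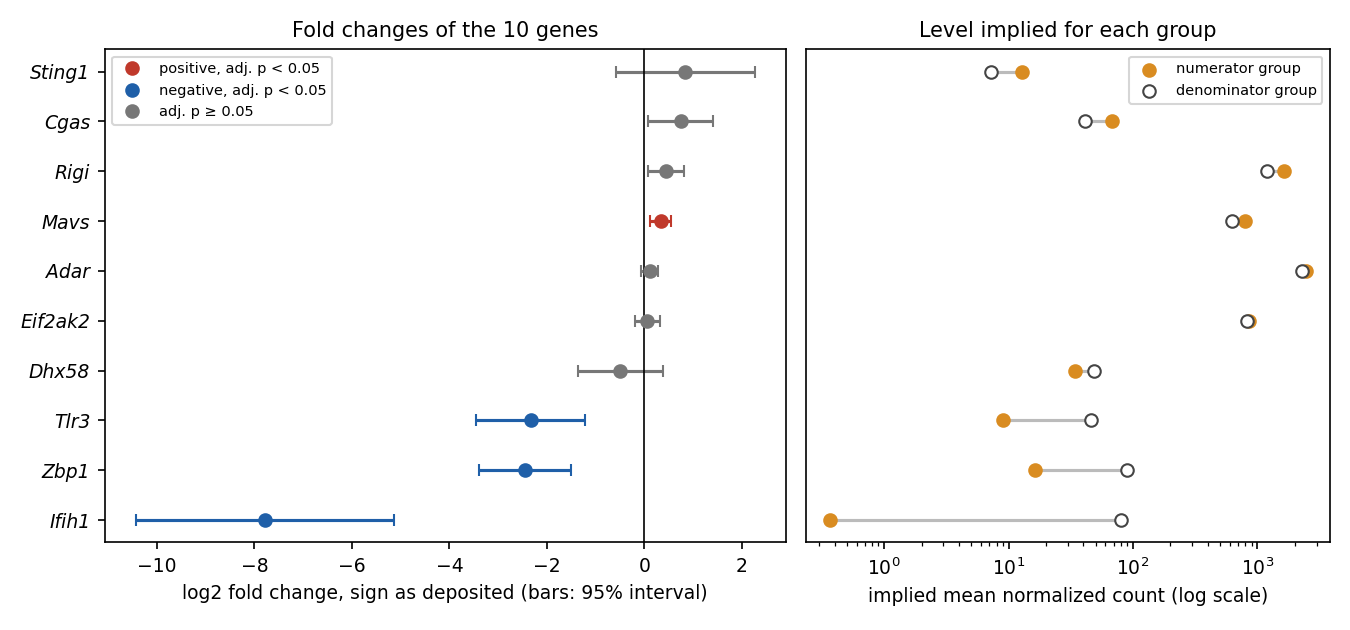
The left panel plots the log2 fold change of each gene, sign as deposited, with its 95% interval from the authors' standard error, and colour marks the call at an adjusted p-value under 0.05. The right panel gives, on a log axis, the mean normalized count that each group of 3 would need for the deposited mean and ratio. Ifih1, Zbp1 and Tlr3 lie to the left of 0 with their whole intervals, and Mavs alone is called on the right.

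Among the RIG-I-like receptors, only Ifih1 passed the test, on the negative side. MDA5, its product, binds long double-stranded RNA. By the authors' deposited table, Ifih1 (ENSMUSG00000026896) had a mean normalized count of 40.5 and a log2 fold change of -7.78 ± 1.35 (DESeq2 adjusted p-value 1.19e-07). Its 95% interval, computed from the authors' deposited table, ran from -10.43 to -5.14. This was the third lowest fold change of all genes in the authors' deposited table. If 3 libraries stand on each side, this ratio and mean correspond to about 80.7 normalized counts per library in one group and 0.37 in the other. The lower level is under 1 count, so the size of the fold change depends on the authors' fit and is not read as a number of times. The error was also high for the level, since the authors' deposited table gives the 500 genes nearest in mean count a median error of 0.40.

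Rigi, whose product binds short double-stranded RNA with a 5′ triphosphate, was far more abundant and had the opposite sign. In the authors' deposited table, Rigi (ENSMUSG00000040296) had a mean count of 1412 and a log2 fold change of 0.44 ± 0.19 (DESeq2 adjusted p-value 0.0663). The ratio is 1.36, with a 95% interval from 1.05 to 1.76 by the errors of the authors' deposited table. It did not pass after adjustment, though its unadjusted p-value was 0.0214 in the authors' deposited table. For genes of like mean count, the authors' deposited table gives a median error of 0.11, against 0.19 for Rigi.

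LGP2, encoded by Dhx58, lacks the signalling domains of the other receptors and modulates them. By the authors' deposited table, Dhx58 (ENSMUSG00000017830) stood at a mean count of 41.3, close to that of Ifih1, with a log2 fold change of -0.49 ± 0.44 (DESeq2 adjusted p-value 0.445). Its 95% interval, from -1.36 to 0.38, does not reach that of Ifih1 in the authors' deposited table. The difference between the receptors was not tested, because their errors come from the same libraries and their covariance is not in the table.

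Mavs, the adaptor that carries the signal of both RNA receptors, was the one gene called positive. In the authors' deposited table, Mavs (ENSMUSG00000037523) had a mean count of 709 and a log2 fold change of 0.33 ± 0.11 (DESeq2 adjusted p-value 0.0102). The ratio was 1.26, with an interval from 1.09 to 1.46 by the authors' deposited table, below the authors' limit of 0.5 on the log2 scale. The call was lost under centring on ribosomal protein genes, at 0.24 with an adjusted p-value of 0.08, so this call rests on the scaling.

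The DNA-sensing pair was scarce and neither gene passed. In the authors' deposited table, Cgas (ENSMUSG00000032344) had a mean count of 54.6 and a log2 fold change of 0.74 ± 0.34 (DESeq2 adjusted p-value 0.0898). The interval for the Cgas ratio of 1.67 ran from 1.05 to 2.67 by the errors of the authors' deposited table, and the unadjusted p-value was 0.0313. Sting1 (ENSMUSG00000024349) had the lowest mean count of the 10 over both groups, 10.1 in the authors' deposited table. Its implied level in the numerator group, 12.9 normalized counts per library, was above those of Ifih1 at 0.37 and Tlr3 at 9.06. Its log2 fold change was 0.84 ± 0.73 by the authors' deposited table (DESeq2 adjusted p-value 0.423). The interval of Sting1, from -0.58 to 2.26, allows a change in either direction, and none was detectable at this level.

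Tlr3, the endosomal receptor, was negative. By the authors' deposited table, Tlr3 (ENSMUSG00000031639) had a mean count of 27.4 and a log2 fold change of -2.34 ± 0.57 (DESeq2 adjusted p-value 0.000329). The 95% interval ran from -3.46 to -1.21 by the authors' deposited table. The matching levels are about 45.8 normalized counts per library in one group and 9.06 in the other, a ratio of 5.05 with an interval from 2.31 to 11.0.

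Zbp1 was likewise negative and nearly as far from 0. In the authors' deposited table, Zbp1 (ENSMUSG00000027514) had a mean count of 52.7 and a log2 fold change of -2.45 ± 0.48 (DESeq2 adjusted p-value 3.33e-06). The ratio was 5.48, with an interval from 2.86 to 10.5, and corresponds to about 89.2 and 16.3 normalized counts per library. Zbp1 and Cgas had nearly equal mean counts in the authors' deposited table and unadjusted intervals on opposite sides of 0. Cgas did not pass after adjustment, at a DESeq2 adjusted p-value of 0.0898, and the difference between these genes was not tested.

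The genes for PKR and ADAR, which act on double-stranded RNA directly, were close to 0 with narrow intervals. Eif2ak2 (ENSMUSG00000024079) had a mean count of 837 and a log2 fold change of 0.06 ± 0.13 by the authors' deposited table (DESeq2 adjusted p-value 0.794). Its sign turned under ribosomal centring, to -0.03. Adar (ENSMUSG00000027951), the most abundant of the 10 with a mean count of 2367, stood at 0.10 ± 0.08 by the authors' deposited table (DESeq2 adjusted p-value 0.394). The intervals were 0.87 to 1.25 as a ratio for Eif2ak2 and 0.96 to 1.20 for Adar, by the errors of the authors' deposited table. ADAR is made as a long interferon-inducible and a short constitutive form from different starts, and 1 value per gene does not separate them.

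**Figure D2:**
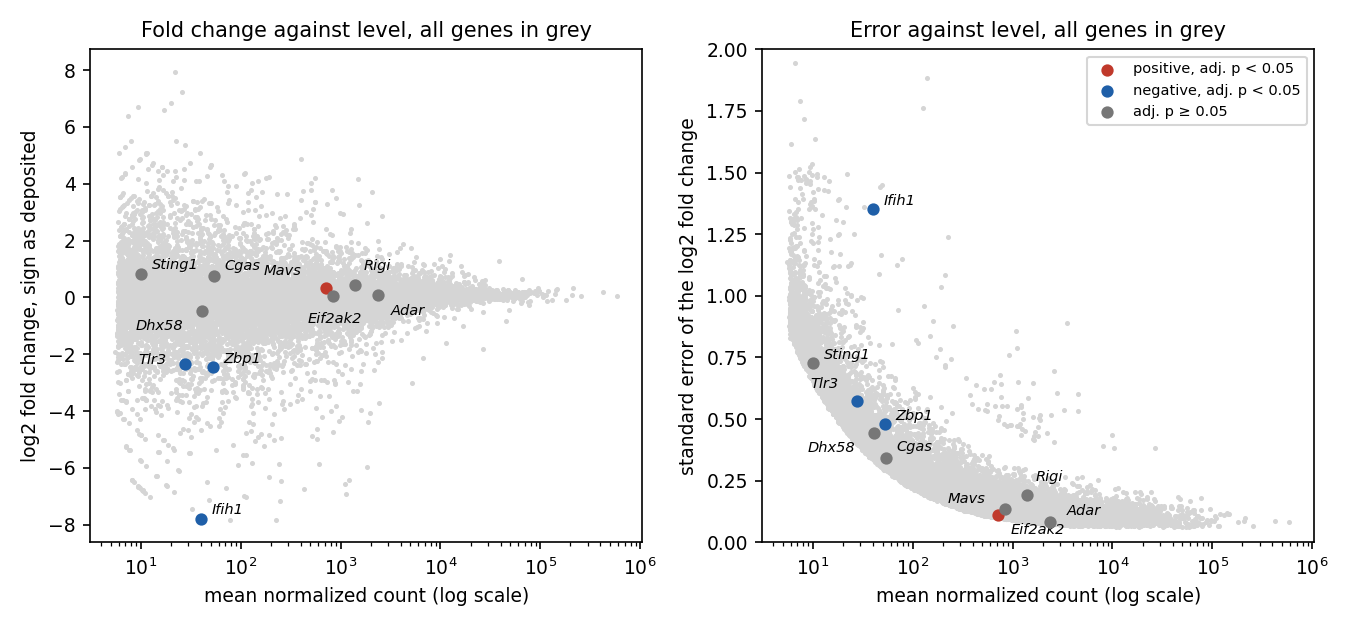
Each grey point is 1 gene of the table, with the 10 genes in colour by their call. The x axis is the mean normalized count on a log scale, and the y axis is the log2 fold change (left) or its standard error (right, drawn up to 2, with 11 genes above). Ifih1 lies near the lower edge of all fold changes and well above the errors of genes at its level, and Rigi lies above the 0.11 median error at its level.

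Levels can be ranked between genes only per length, so mean counts were divided by the longest transcript in GENCODE M21. From 3 to 10 transcripts are listed for each of these genes. Which of them was expressed is not known here, so the order also rests on this choice of length. Per kilobase, the order was Adar at 401 normalized counts, Rigi at 364, Mavs at 232 and Eif2ak2 at 194. The scarce genes followed, with Dhx58 at 17.1, Zbp1 at 15.9, Cgas at 13.5, Ifih1 at 7.41, Tlr3 at 6.22 and Sting1 at 4.37. The median of 16795 genes with a length was 132. The 4 abundant genes were thus above the median gene and the other 6 below it. This order is of means over both groups, and the implied levels of the 6 scarce genes rank differently in each group. In the numerator group, Cgas at 16.9 and Dhx58 at 14.2 normalized counts per kilobase came first, then Sting1 at 5.61, Zbp1 at 4.90, Tlr3 at 2.06 and Ifih1 at 0.067. In the other group, Zbp1 came first at 26.8, then Dhx58 at 20.0, Ifih1 at 14.8, Tlr3 at 10.4, Cgas at 10.1 and Sting1 at 3.14. The 4 abundant genes stayed above all 6 in both groups, at 190.0 or more per kilobase. Spread between samples is not known here, so neighbours in this order, such as Dhx58 and Zbp1, cannot be ranked beyond the mean values.

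Some values may hold reads that belong elsewhere, because strand handling is not given in the sources used here. In GENCODE M21, Adar overlaps Chrnb2, a protein-coding gene on the other strand, which had a mean count of 83.1 in the authors' deposited table. Tlr3 overlaps Gm45542, Dhx58 overlaps Dhx58os, Cgas overlaps Gm8093 and Eif2ak2 overlaps n-R5s29 and Gm26637, all on the other strand. Ifih1, Zbp1, Rigi, Mavs and Sting1 overlap no other listed gene.

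Genes that act with the sensors were then examined through 7 lists from general knowledge of the pathway, which hold 112 symbols. Of these, 102 had a row, and 37 (36.3%) were past an adjusted p-value of 0.05, with 13 positive and 24 negative. The negative share was 23.5% and the positive share 12.7%, beside 15.9% and 14.6% in the whole authors' deposited table. The median log2 fold change of the 102 was -0.02. Ribosomal centring, which shifts every gene by 0.09, moved the positive share of all calls from 47.8% to 34.7%. Under it, the pathway lists had 10 positive and 31 negative genes.

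Of 17 genes that relay the signal after the sensors, 4 (23.5%) were negative and 0 positive by DESeq2, with the same numbers at an unadjusted p-value under 0.05. At that unadjusted limit, 19.6% of the whole authors' deposited table was negative and 18.7% positive. The share called in either direction was thus below the 30.5% of the whole table. The 4 were Tank, Azi2, Traf3 and Traf6, which scaffold or ubiquitinate the kinase complexes. The authors' deposited table gives them log2 fold changes of -0.87, -0.43, -0.41 and -0.45, with errors between 0.10 and 0.15. The other 13 did not pass, among them the kinase Tbk1 at -0.20 and the transcription factor Irf3 at -0.02 by the authors' deposited table, with errors of 0.11 each; both were named after their values were seen. Tomm70a, the most abundant of the list, had 0.13 ± 0.09 by the authors' deposited table. Irf7 was not analysed here. The median of the list was -0.12.

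Regulators of RIG-I, MDA5 and MAVS had calls in both directions. Of 17 genes, 5 were positive and 4 negative (52.9% called, against 30.5% of all genes), with a median of -0.09. The ubiquitin ligases Trim25 and Rnf135, known activators of RIG-I, had log2 fold changes of 0.51 ± 0.11 and 1.13 ± 0.28 by the authors' deposited table. Rnf125, a ligase that marks RIG-I for degradation, had 0.89 ± 0.15 by the authors' deposited table. Tnfaip3, which encodes the deubiquitinating enzyme A20, stood at -2.07 ± 0.33 by the authors' deposited table, and Mex3c, another ubiquitin ligase of RIG-I, at -0.57 ± 0.10. Zc3hav1, whose short form is a further known activator of RIG-I, was negative at -0.69 ± 0.20 by the authors' deposited table. Pcbp2, the most abundant of these genes, was at -0.0003 ± 0.07 by the authors' deposited table. Rnf135 and Zc3hav1 fall outside the naming rule and were named after their values were seen.

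Regulators of cGAS and STING had calls on the negative side only. Of 17 genes, 6 (35.3%) were negative and 0 positive by DESeq2, with 9 negative and 0 positive at an unadjusted p-value under 0.05, and the median was -0.25. The background called in either direction was 30.5%, with 15.9% of all genes negative. At the unadjusted limit, 19.6% of all genes were negative and 18.7% positive. Trim56, a ligase of the pathway, had a log2 fold change of -1.31 ± 0.33 by the authors' deposited table. Stim1, which holds STING in the endoplasmic reticulum, was at -0.64 ± 0.20 in the authors' deposited table, and Surf4, which returns it from the Golgi, at -0.32 ± 0.10. Trim32, another ubiquitin ligase of STING, had -0.44 ± 0.12 by the authors' deposited table. Banf1, which shields nuclear DNA from cGAS, was the most abundant and had 0.08 ± 0.08 by the authors' deposited table, a sign that turned under ribosomal centring.

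Other sensors included the highest fold change of the 7 lists. Of 28 listed genes, 19 had a row, 3 were positive and 2 negative, and the median was 0.07. The share called was 26.3%, against 30.5% of all genes. Aim2, which binds cytoplasmic DNA and builds an inflammasome, had a log2 fold change of 1.69 ± 0.13 by the authors' deposited table (DESeq2 adjusted p-value 7.91e-39). Pycard, the inflammasome adaptor that AIM2 recruits, had 1.14 ± 0.16 by the authors' deposited table (DESeq2 adjusted p-value 1.49e-11). Xrcc5, a subunit of the Ku heterodimer that binds DNA ends, stood at 0.36 ± 0.11, and Lrrfip1, which binds RNA and DNA, at -1.35 ± 0.15 in the authors' deposited table. Ddx60, an RNA helicase, was the other negative gene at -1.99 ± 0.69 by the authors' deposited table and was named after its value was seen. Hsp90b1, the chaperone of Toll-like receptors and the most abundant of the list, had -0.14 ± 0.08 by the authors' deposited table, and it passed under ribosomal centring at -0.23. Tlr7, Tlr8, Tlr9 and Tlr13, the other nucleic acid receptors of endosomes, were not analysed here.

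Enzymes that remove self nucleic acid were called in both directions, with 3 of 14 positive, 3 negative and a median of 0.15. The share called was 42.9%, against 30.5% of all genes. Dnase2a, the lysosomal nuclease, had a log2 fold change of 0.85 ± 0.12 by the authors' deposited table. Rnaseh2a, the catalytic subunit of ribonuclease H2, had 0.45 ± 0.08, and Ttc37, of the cytoplasmic RNA exosome cofactor, 0.42 ± 0.09 in the authors' deposited table. Pnpt1, a mitochondrial ribonuclease and the most abundant of the list, had -0.43 ± 0.12 by the authors' deposited table.

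Around PKR, 2 of 14 genes were positive and 2 negative (28.6% called, against 30.5% of all genes), with a median of 0.08. Prkra, whose product activates PKR, had a log2 fold change of -0.49 ± 0.18 by the authors' deposited table, and Dnajc3, an inhibitor of the kinase, -0.53 ± 0.10. Eif2ak3, the kinase of the same family that responds to unfolded protein, had 0.35 ± 0.10 by the authors' deposited table. Atf4, translated when these kinases are active, had 0.29 ± 0.11 by the authors' deposited table; under ribosomal centring it stood at 0.20 and missed the threshold. Eif2s1, the substrate of the kinases, had 0.06 ± 0.12 by the authors' deposited table, and its sign turned under the same centring.

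The cell death proteins around ZBP1 included the lowest fold changes of the 7 lists. Of 6 genes, 3 were negative and 0 positive by DESeq2, where 15.9% of all genes were negative and 30.5% called in either direction. At an unadjusted p-value under 0.05, 1 was positive, where 18.7% of all genes were. The median of the list was -0.40. Casp8, the caspase that restrains necroptosis, had a log2 fold change of -2.71 ± 0.27 by the authors' deposited table (DESeq2 adjusted p-value 1.84e-21). Mlkl, the executioner of necroptosis, had -2.37 ± 0.32 by the authors' deposited table (DESeq2 adjusted p-value 3.05e-12). Casp6, a further caspase, was at -0.86 ± 0.26 by the authors' deposited table. The kinase Ripk1 had 0.31 ± 0.21 in the authors' deposited table, and Ripk3, through which ZBP1 signals, had 0.48 ± 0.22, neither past the test. Ripk3 was named after its value was seen.

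**Figure D3:**
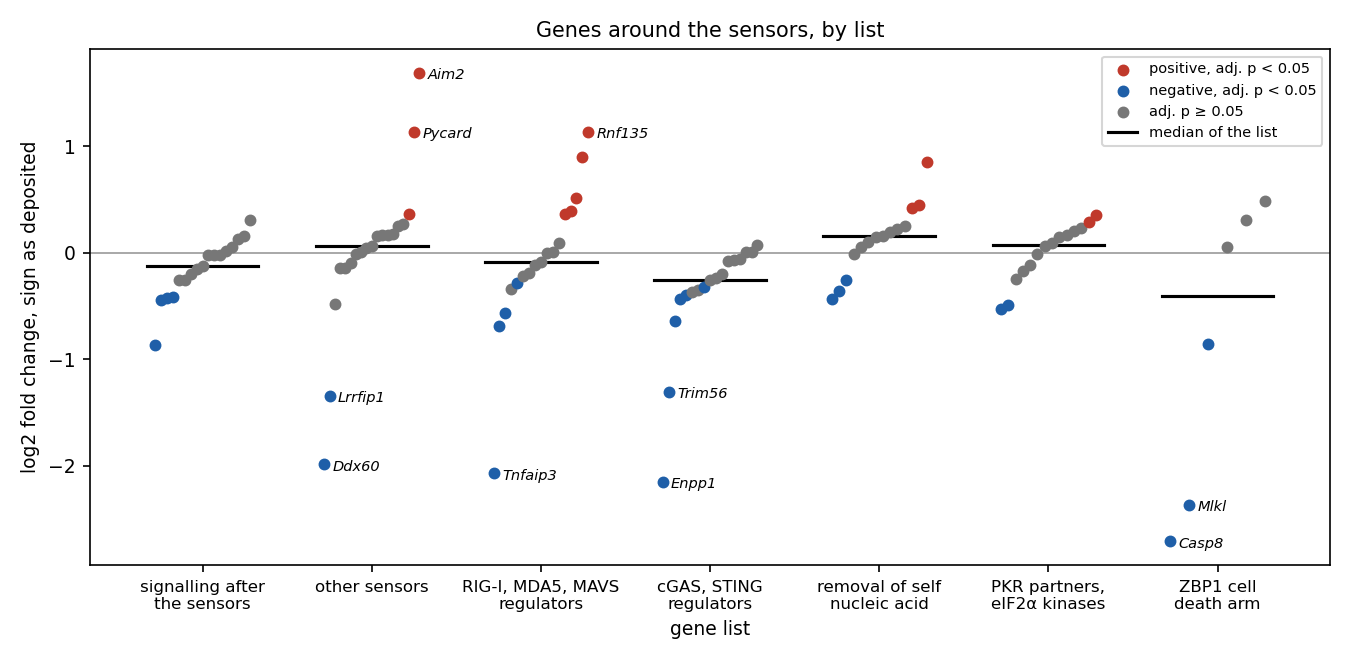
Each point is 1 gene with a row, placed by its log2 fold change, sign as deposited, within its list, and coloured by its call at an adjusted p-value under 0.05. Black lines are list medians, from -0.40 for the ZBP1 arm to 0.15 for removal of self nucleic acid, and genes beyond 1 in either direction are named.

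Position along the chromosome was a feature that the choice of genes did not use. For each gene, the 2 nearest protein-coding genes with a row on either side were taken from the order in GENCODE M21. Of these 40 neighbours, 17 (42.5%) were past an adjusted p-value of 0.05, with 7 positive and 10 negative, where the authors' deposited table has 30.5% of all its genes past it. All 4 neighbours of Tlr3 were negative like Tlr3 itself. The log2 fold changes of Cyp4v3, Fam149a, Sorbs2 and Pdlim3 were -4.12, -2.65, -1.01 and -2.13 by the authors' deposited table, with errors from 0.36 to 1.08. Around Cgas, the neighbours Ooep, Ddx43 and Mto1 were positive at 1.68, 0.89 and 0.38 by the authors' deposited table, with errors between 0.13 and 0.20, and the next, Eef1a1, did not pass.

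The neighbours of Ifih1 and Zbp1 did not share one sign. Beside Ifih1, Dpp4 stood at 1.54 ± 0.13 by the authors' deposited table, while Gca and Kcnh7 on the other side were negative, Gca at -0.53. Beside Zbp1, Ctcfl had 2.59 ± 0.51 and Rbm38 -0.32 ± 0.12 in the authors' deposited table. The 4 neighbours of Mavs, of Rigi and of Adar did not pass. Called genes also lay beside members without a call. Next to Eif2ak2, Sult6b1 and Cebpzos were positive at 1.92 ± 0.17 and 0.35 ± 0.12 by the authors' deposited table. Next to Sting1, Ecscr and Ube2d2a were negative at -1.81 ± 0.49 and -0.26 ± 0.09 by the authors' deposited table, and near Dhx58 Nkiras2 was negative at -0.36 ± 0.11. The neighbours were looked at after the values of the 10 genes were known.

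**Figure D4:**
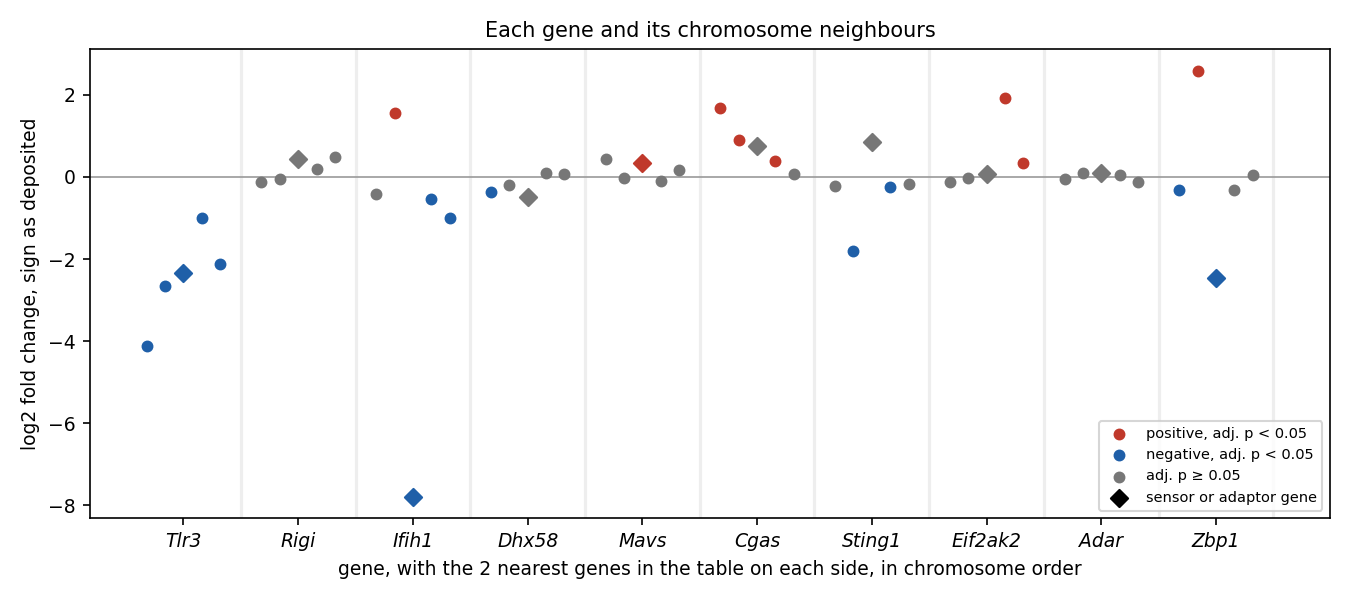
Diamonds are the 10 genes and circles the 2 nearest genes with a row on each side, in chromosome order, with the log2 fold change, sign as deposited, on the y axis and the call in colour. All 5 points at Tlr3 are negative and called, while those at Ifih1 and Zbp1 lie on both sides of 0.

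Markers of other cells moved in the same comparison, and their part in the values above was not tested. All 12 pluripotency markers had a row, with mean counts between 1260 and 38163 in the authors' deposited table. By DESeq2, 10 (83.3%, against 14.6% of all genes) were positive and 0 negative, with the same numbers at an unadjusted p-value under 0.05. The implied levels of the 12 summed to 184897 normalized counts per library in the numerator group and 108727 in the other. Of 9 trophectoderm markers with a row among 10 listed, 6 were negative (66.7%, against 15.9% of all genes), and their sums were 2174 and 11380. Of 8 fibroblast markers with a row among 14, 4 were negative and 1, Fn1, was positive, with sums of 31175 and 24692. Without Fn1 the order of the fibroblast sums turned, to 225 in the numerator group and 3948 in the other. Most of the 3948 came from Tagln, with a mean count of 1849 and a log2 fold change of -5.96. No other remaining fibroblast marker had a mean count above the 94.2 of Pdgfrb. Of 7 primitive endoderm markers with a row among 9, 2 (28.6%) were negative and 1 (14.3%) positive, with sums of 2679 and 1367. Without Lama1, the positive one, these sums also turned, to 306 and 737. Fn1 and Lama1 were left out after the values were seen. Leukocytes are rich in several of these sensors, and 3 of 12 leukocyte markers had a row. These were Cd68, Itgam and Laptm5, all positive where 14.6% of all genes were, at 0.91, 1.84 and 1.34 by the authors' deposited table. Their implied levels summed to 1086 and 456 normalized counts per library. The other 9 leukocyte markers, Ptprc and Csf1r among them, were not analysed here.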

How the data were processed

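Per the submitters' processing notes, the tools were FastQC 0.12.1, Trimmomatic 0.39, STAR 2.7.11b, RSEM 1.3.3 and DESeq2 1.45.3 and the build was GRCm39, with no roles or order given. The annotation release, model formula, reference group, strand setting and filters are not given in the sources used here. Per the file headers, the authors deposited for each gene a mean normalized count (a signal averaged over libraries), a log2 fold change with its standard error on the log2 scale, a test statistic (a score), a p-value and an adjusted p-value. The deposited statistic differed by at most 5.77e-07 from the fold change divided by its error, so it was read as a Wald statistic. The table was taken to compare the sorted groups because the labels list no others. A table of counts was not used, since its 6 per-sample columns carry run and barcode numbers that match no label, and edgeR was therefore not run. The design allowed for this case. Whether replicates are separate cultures is stated only as biological replicates taken on different dates.

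Genes were called at an adjusted p-value under 0.05 as deposited by the authors, over all genes. The 95% intervals are the fold change plus or minus the normal quantile times the authors' error. Levels per group were solved from the mean count and the ratio, assuming 3 libraries on each side. Members and lists were chosen with earlier results of these data known, so no p-value is given for a list. Named genes were the 10 members and, in each pathway list, up to 4 called genes with the smallest p-values and the gene with the highest mean count; pathway genes named outside this rule are marked where they appear. Symbols were matched by the table's names and else by GENCODE M21 (GRCm38) gene identifiers. Promoters and their coordinates are RefSeq's on GRCm38.p6, not the authors' build. The alternatives were 2 fold limits, a stricter adjusted p-value, 2 centrings, a minimum mean count of 50 and a recomputed adjustment. Scripts used Python 3.11.15 with pandas 2.3.3 and scipy 1.17.1 and were tested on simulated data.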

Additional observations from a re-analysis of the deposited data

How the results depend on the processing

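Depth, replicate spread and the weight of single libraries are unknown here, and the scarce genes have the widest errors. No paired analysis was possible because no column with values per sample could be tied to a replicate number. For the same reason DESeq2 on counts, no filter, the replicate block and leaving out each replicate were not run. Among the 10 genes, 61 of 66 values under the 7 alternatives kept their direction and side of the threshold. The fold limits and the stricter adjusted p-value can only remove calls, and the recomputed adjustment nearly repeats the deposited one. For genes without a call, these settings could hardly give another outcome. The positive call, Mavs, dropped out in 4 alternatives, leaving 0 positive genes at an adjusted p-value of 0.01, at absolute log2 fold changes over 0.5 or 1, and under ribosomal centring. With a mean count of at least 50, 6 genes were tested and 2 were called, of which 1, Zbp1, was negative, because Ifih1 and Tlr3 fall below that count. The 3 negative calls held under the other 6 alternatives. The pathway calls went from 37 to 19 (6 positive, 13 negative) at the limit of 0.5 and to 10 (3 positive, 7 negative) at 1, which the limits themselves produce. Ribosomal centring reversed Eif2ak2 (-0.0333), Banf1 (-0.0154) and Eif2s1 (-0.0330), all without a call. Of 231 values of the 33 named pathway genes under an alternative, 193 stayed as they were, 35 lost their call, 1 gained one and 2 reversed. Causes not stated were not tested.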

Other observations

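Interferon-inducible genes outside the sensors were looked at after the values of the 10 genes were seen, from a list of 26 symbols. The list also held the interferon receptor genes Ifnar1 and Ifnar2, neither of which was called, and 19 of the 26 had a row. Of the 19, 7 were negative, 4 positive and 8 not past an adjusted p-value of 0.05, where the authors' deposited table calls 30.5% of all its genes. The lowest fold change of the whole authors' deposited table was that of Isg15, a ubiquitin-like modifier, at -7.83 ± 1.15, next to Sprr2a2 at -7.82 and Ifih1 at -7.78. Isg15 had a mean count of 77.6 in the authors' deposited table, so its lower group is close to 0 as for Ifih1.

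The list did not move one way. Oasl2 was at -5.06 ± 0.54 by the authors' deposited table, and Irf1, a transcription factor induced by interferon, at -1.69 ± 0.25. Besides Isg15, the other negative calls were Mx2 at -6.65 ± 1.47, Cmpk2 at -2.52 ± 0.58, Ifi35 at -1.41 ± 0.41 and Trim21 at -0.65 ± 0.24. Oas2, Oas1a and Oas3, enzymes activated by double-stranded RNA, were at 2.54 ± 0.35, 1.67 ± 0.28 and 1.46 ± 0.42 by the authors' deposited table. Oasl1 was the other positive call, at 2.86 ± 1.03, so all 4 positive calls were Oas or Oasl genes. Mx2 and Oasl1 had mean counts of only 9.46 and 8.10. Oas1a belongs to a set of similar gene copies, among which reads could have been divided, and this was not tested. Stat2, which carries the interferon signal, had 0.57 ± 0.26 by the authors' deposited table and missed the threshold.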
